A study of Mus musculus with 10 samples.

Results

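The circadian clock genes described here are Arntl (also called Bmal1), Clock, Npas2, Per1, Per2, Per3, Cry1, Dbp, Nr1d1 and Nr1d2. They were taken from the mouse aortic expression arrays by gene name, as 10 of 35527 gene names on the array. Each was compared between 5 aneurysmal and 5 sham aortas, and the question was whether genes that normally peak at opposite times of day moved apart. In PPE-infused aortas Arntl was 2.46-fold higher than in sham, Dbp was 6.39-fold lower, and Per1, Per2, Per3, Nr1d1 and Nr1d2 were between 1.98-fold and 4.64-fold lower. Clock, the partner of Arntl, did not pass the test, and Npas2 and Cry1 were too dim to be tested.

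In nearly every mammalian cell, ARNTL pairs with CLOCK or NPAS2 and binds E-box elements in the Per, Cry, Nr1d1, Nr1d2 and Dbp genes. PER and CRY proteins return to the nucleus and shut off their own activation, and NR1D1 and NR1D2 (REV-ERB alpha and beta) repress Arntl and Npas2 through a competing element, the RORE. Arntl and Npas2 RNA therefore peak at the opposite time of day from Dbp, Nr1d1 and the Per genes, in the arterial wall as in other peripheral tissues.

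All mice were 10-week-old male C57BL/6J mice on a normal diet, and both groups underwent the same surgery on the infrarenal aorta. The sham group was infused with saline, and the PPE group with type I porcine pancreatic elastase at 1.5 U/mL, which digests elastic fibres and leads to an abdominal aortic aneurysm. The infusion lasted 5 min at 100 mmHg, and the infrarenal segment was removed on day 7, with 1 aorta on each array. RNA of each aorta (500 ng) was labelled with Cy5 and hybridised together with a Cy3-labelled universal mouse reference RNA, so every level below is a log2 ratio of aorta over reference.

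According to the methods, some arrays of the study were left out of its analysis for poor hybridisation or as outliers. The clock hour of harvest is not given in the sources used here, so hour of harvest and group cannot be told apart in any comparison of clock genes. The aortas are bulk tissue, in which fewer cells of a type and less RNA per cell cannot be told apart. Spots called well above background in red made up 37.6% of sham 5, the lowest share, and 65.8% of PPE 1, the highest. Slide 1 (sham 1, PPE 1, PPE 2) was scanned on a day of its own, and slide 2 held sham 2, sham 3, PPE 3 and PPE 4. The remaining 3 arrays were on 3 further slides.

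The elements through which these genes regulate each other can be read in their promoters. RefSeq windows from 250 bases before to 50 after the annotated start (build GRCm38.p6) were available for 9 of the 10 genes, all but Per2, as 13 windows. Both strands were searched for the E-box CACGTG, its variant CACGTT, the D-box TTATGTAA bound by DBP, TEF, HLF and NFIL3, and the RORE cores TAGGTCA and TGGGTCA. The 3 windows below show 1 kind of element each, in capitals.
Arntl, second annotated start (chr7:113207261-113207560, plus strand), RORE core: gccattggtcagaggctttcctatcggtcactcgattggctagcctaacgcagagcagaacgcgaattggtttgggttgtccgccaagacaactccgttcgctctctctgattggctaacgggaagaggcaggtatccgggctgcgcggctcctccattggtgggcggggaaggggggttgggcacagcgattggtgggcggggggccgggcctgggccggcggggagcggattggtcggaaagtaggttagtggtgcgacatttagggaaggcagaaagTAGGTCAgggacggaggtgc
Per1, first annotated start (chr11:69098699-69098998, plus strand), E-box: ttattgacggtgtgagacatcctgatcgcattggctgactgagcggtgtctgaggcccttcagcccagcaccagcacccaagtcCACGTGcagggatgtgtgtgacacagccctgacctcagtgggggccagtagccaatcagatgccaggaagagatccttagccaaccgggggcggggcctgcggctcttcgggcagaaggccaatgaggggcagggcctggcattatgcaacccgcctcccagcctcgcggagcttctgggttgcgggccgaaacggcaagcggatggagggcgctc
Per3 (chr4:151044616-151044915, minus strand), D-box at 2 places: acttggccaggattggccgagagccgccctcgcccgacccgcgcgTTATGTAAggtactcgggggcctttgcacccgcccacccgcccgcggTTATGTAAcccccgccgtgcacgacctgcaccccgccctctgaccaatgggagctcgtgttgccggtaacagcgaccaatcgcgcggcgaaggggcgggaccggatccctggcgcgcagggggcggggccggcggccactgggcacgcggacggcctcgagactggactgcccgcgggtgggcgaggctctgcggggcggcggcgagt
The RORE core of Arntl began at 30 relative to the start, the E-box of Per1 at -166, and the D-boxes of Per3 at -205 and -158. The Cry1 window held CACGTG at -60 and CACGTT at -79, and the Nr1d1 window held CACGTT at -28. Among all 32851 windows of 300 bases in the RefSeq table, 7.15% held CACGTG, 4.68% CACGTT, 0.938% TTATGTAA, 2.61% TAGGTCA and 3.98% TGGGTCA. None of these letters occurred in the windows of Dbp, Nr1d2, Npas2 and Clock, in the first window of Arntl or in the second of Per1. Among further clock genes described below, the windows of Hlf, Usp2 and Rora held none either. A match is a run of letters and does not show binding.

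A gene entered the test when 5 or more of the 10 arrays detected it (red signal called well above background by the scanner software), and it was called where limma's Benjamini-Hochberg adjusted p over all 22520 tested gene names was below 0.01. Among those names 13.9% were higher in PPE and 9.96% lower (23.8% in either direction). For 25.5% the groups did not overlap, with every PPE value above every sham value or every PPE value below every sham value. Of the 10 clock genes 8 passed the filter, 1 was called higher, 6 lower and 1 neither. The groups did not overlap for the 7 that were called. The median log2 difference of the 8 was -1.34, against 0.02 over all tested names, and their median absolute difference was 1.37 against 0.29.

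**Figure D1:**
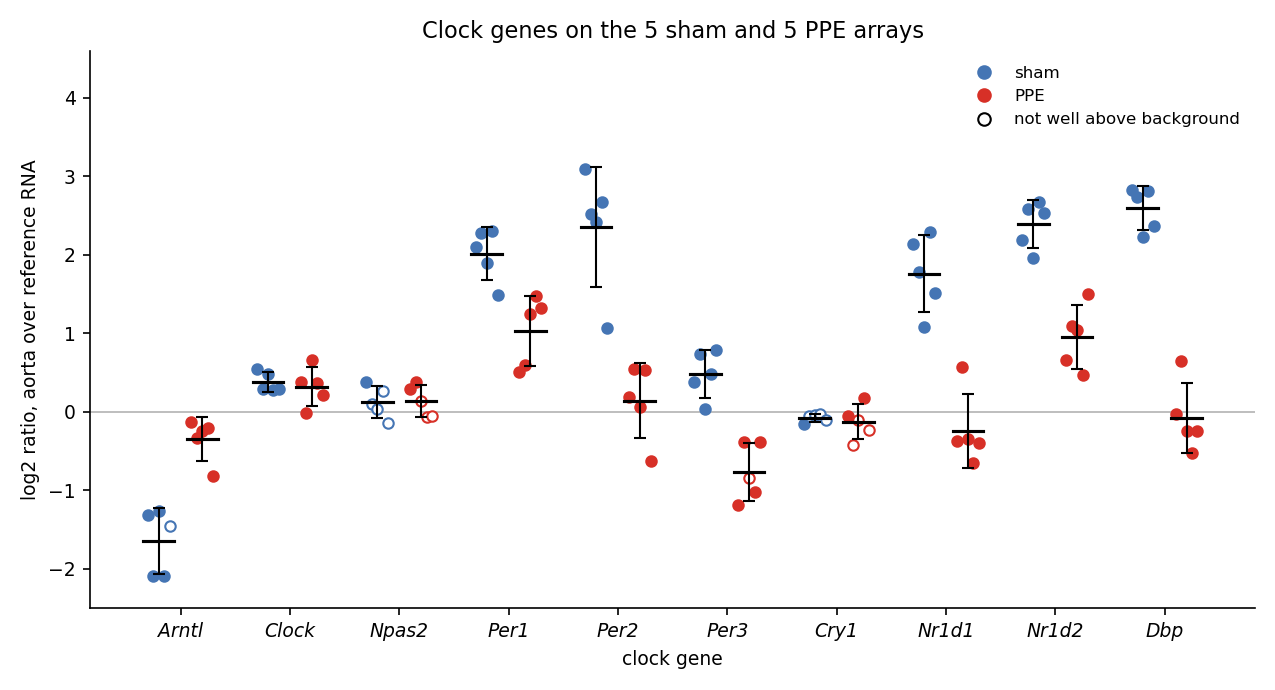
Log2 ratio of aorta over reference RNA (vertical axis) for each of the 10 clock genes (horizontal axis) on the 5 sham (blue) and 5 PPE (red) arrays, with open points for arrays where the signal was not well above background. Black bars give the mean ± SD of each group. Arntl rose from a mean of -1.65 to -0.35 while Dbp fell from 2.60 to -0.08, and the points of Clock, Npas2 and Cry1 overlapped between groups.

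Arntl, the obligate activator of the loop, was measured by a probe at chr7:120457261-120457320 (mm9, plus strand). Its log2 ratio on sham 1 to 5 was -1.31, -2.09, -1.27, -2.10 and -1.46, and on PPE 1 to 5 it was -0.13, -0.34, -0.24, -0.21 and -0.82. Every PPE array stood above every sham array, and PPE 5 was the closest to sham. The difference was 1.30 (SE 0.20, limma adjusted p = 0.000449, n = 5 per group), higher than 93.8% of all tested names. It was 1.08 within slide 1 and 1.45 within slide 2. From the scanner's own log ratio the difference was 2.13 (adjusted p = 0.0024). Its signal was well above background on 4 sham and 5 PPE arrays.

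Clock, which encodes the partner of ARNTL and varies little over the day in most tissues, read 0.54, 0.28, 0.47, 0.28 and 0.29 on sham 1 to 5 and 0.38, -0.02, 0.65, 0.37 and 0.22 on PPE 1 to 5. The groups overlapped, with a log2 difference of -0.05 (95% interval -0.34 to 0.23, limma adjusted p = 0.796). Npas2, which can take the place of Clock and is repressed through the same element as Arntl, was well above background on 1 sham and 2 PPE arrays. Its log2 ratios lay between -0.14 and 0.38 in sham and between -0.07 and 0.38 in PPE. Of this pair of genes of like phase, Arntl and Npas2, only Arntl was tested.

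The Per genes encode the proteins that repress ARNTL and CLOCK. Per2 (probe chr1:93313046-93313105, minus strand, mm9) read 3.09, 2.52, 2.42, 2.67 and 1.06 on sham 1 to 5 and 0.18, 0.55, 0.06, 0.53 and -0.63 on PPE 1 to 5. Sham 5 was the lowest sham array and PPE 5 the lowest PPE array, and the groups did not overlap. Per2 fell by 2.22 on the log2 scale (SE 0.35, limma adjusted p = 0.00045), to 21.5% of sham.

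Per3 read 0.38, 0.74, 0.03, 0.49 and 0.79 on the sham arrays and -1.19, -0.38, -0.84, -1.02 and -0.39 on the PPE arrays, again without overlap. It fell by 1.25 (SE 0.20, limma adjusted p = 0.000453), or by 2.31 from the scanner's own log ratio (adjusted p = 0.000516), and its signal was well above background on all but 1 PPE array. Per1, the member of the family that also responds quickly to glucocorticoids and other signals, read 2.10, 2.28, 1.89, 2.31 and 1.49 in sham and 0.51, 0.59, 1.25, 1.48 and 1.32 in PPE. The groups were apart by a gap of only 0.0072 on the log2 scale, between sham 5 and PPE 4. The 2 lowest PPE values were those of slide 1.

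Per1 fell by 0.98 (SE 0.22, limma adjusted p = 0.0051). Its difference was -1.55 within slide 1 and -0.72 within slide 2. Its call was lost when any 1 of sham 1, sham 2, sham 4, PPE 1 or PPE 2 was left out, with log2 differences from -0.96 to -0.85 and adjusted p from 0.0125 to 0.0162. Without the 3 arrays of slide 1 the difference was -0.64 (adjusted p = 0.0537). The decrease of Per1 is therefore less certain than that of Per2 and Per3, whose calls held with each array left out in turn. A second Per1 probe was well above background on 4 arrays and was not tested.

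Cry1 encodes a CRY repressor that joins the PER proteins. It was well above background on 1 sham and 2 PPE arrays, with log2 ratios between -0.16 and -0.03 in sham and between -0.42 and 0.18 in PPE. At this brightness no difference was detectable.

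Nr1d1 and Nr1d2 encode the nuclear receptors that repress Arntl through its RORE, an element of the kind shown above in the Arntl window. Nr1d1 read 2.14, 1.78, 1.08, 2.29 and 1.52 on sham 1 to 5 and -0.38, 0.56, -0.35, -0.66 and -0.40 on PPE 1 to 5. PPE 2 was well above the other PPE arrays but still below every sham array. Nr1d1 was 4.01-fold lower, at 24.9% of sham (95% interval of the log2 difference -2.59 to -1.42, SE 0.27, limma adjusted p = 0.000139).

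Nr1d2 read 2.19, 2.59, 1.95, 2.68 and 2.53 on the sham arrays and 0.65, 1.10, 1.04, 0.46 and 1.49 on the PPE arrays. The groups did not overlap, with PPE 5 nearest to sham. It fell by 1.44 (SE 0.21, limma adjusted p = 0.000235), and its second probe gave -1.33.

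Dbp encodes a D-box activator, a direct output of ARNTL and CLOCK that is among the most strongly rhythmic transcripts of peripheral tissues. Its log2 ratio (probe chr7:52965322-52965381, plus strand, mm9) was 2.83, 2.74, 2.23, 2.82 and 2.37 on sham 1 to 5 and -0.02, 0.64, -0.24, -0.52 and -0.25 on PPE 1 to 5. The gap between the lowest sham and the highest PPE array was 1.59, the widest of the 10 genes. Dbp fell by 2.68 (SE 0.21, limma adjusted p = 3.6e-06), to 15.6% of sham, and ranked 59 from the lowest of all 22520 log2 differences. A second Dbp probe gave -3.27. Within slide 1 the difference was -2.52 and within slide 2 it was -2.87.

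Arntl thus moved in the opposite direction from Dbp, Nr1d1 and the Per genes. The mean log2 ratio of Arntl and Npas2 minus that of Dbp, Per1, Per2, Per3 and Nr1d1 was -2.57, -3.01, -2.15, -3.03 and -2.25 on sham 1 to 5 and 0.26, -0.37, -0.03, -0.10 and -0.37 on PPE 1 to 5. The ranges did not overlap, and the mean rose by 2.48, from -2.60 ± 0.41 to -0.12 ± 0.26 (SD, n = 5 each). The rise was 2.52 in each of slides 1 and 2. With Arntl in place of Arntl and Npas2 it was 3.12, since the dim Npas2 probe hardly moved. Arntl minus Dbp rose by 3.97, from between -4.92 and -3.50 in sham to between -0.99 and 0.31 in PPE. These differences are between genes on one array, and they were not tested because they sum over genes chosen for a known relation. A difference from the reference RNA is contained in every value, so a value near 0 does not mean equal amounts of the RNAs.

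**Figure D2:**
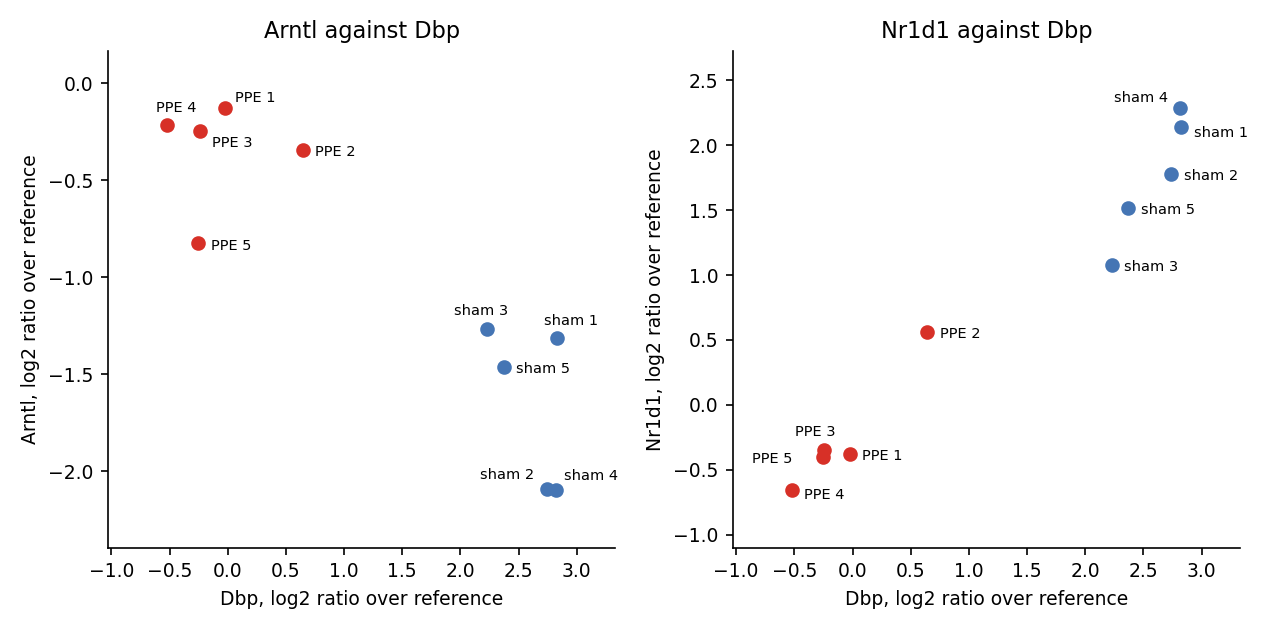
Log2 ratios over reference on each array, with Arntl against Dbp on the left and Nr1d1 against Dbp on the right (sham blue, PPE red). The sham arrays lay at high Dbp (2.23 to 2.83) and low Arntl, and the PPE arrays at low Dbp (-0.52 to 0.64) and higher Arntl, while PPE 2 had the highest Dbp and Nr1d1 of the PPE arrays.

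Normalisation within arrays bore on every call. When each array was centred on its median instead of corrected by loess, the median difference over all tested names moved to 0.41, none of the clock genes kept its call, the groups overlapped for each of them, and the calls over all names fell to 408 higher and 8 lower. The 7 called genes kept their direction, while Clock, which was not called, turned from -0.05 to 0.48. Relative to that shifted median, Arntl was 1.24 higher, Dbp -2.16, Per2 -1.95, Nr1d1 -1.72, Per3 -1.24, Nr1d2 -1.19 and Per1 -0.61. After median centring, the difference between genes of opposite phase within an array lay between -2.37 and -0.70 in sham and between -0.41 and 0.54 in PPE. These ranges did not overlap, but the gap was narrower than after loess (-3.03 to -2.15 and -0.37 to 0.26). A shift common to all genes would add nothing to this difference, but the genes did not shift alike. Arntl went from 1.30 to 1.65 and Dbp from -2.68 to -1.75.

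**Figure D3:**
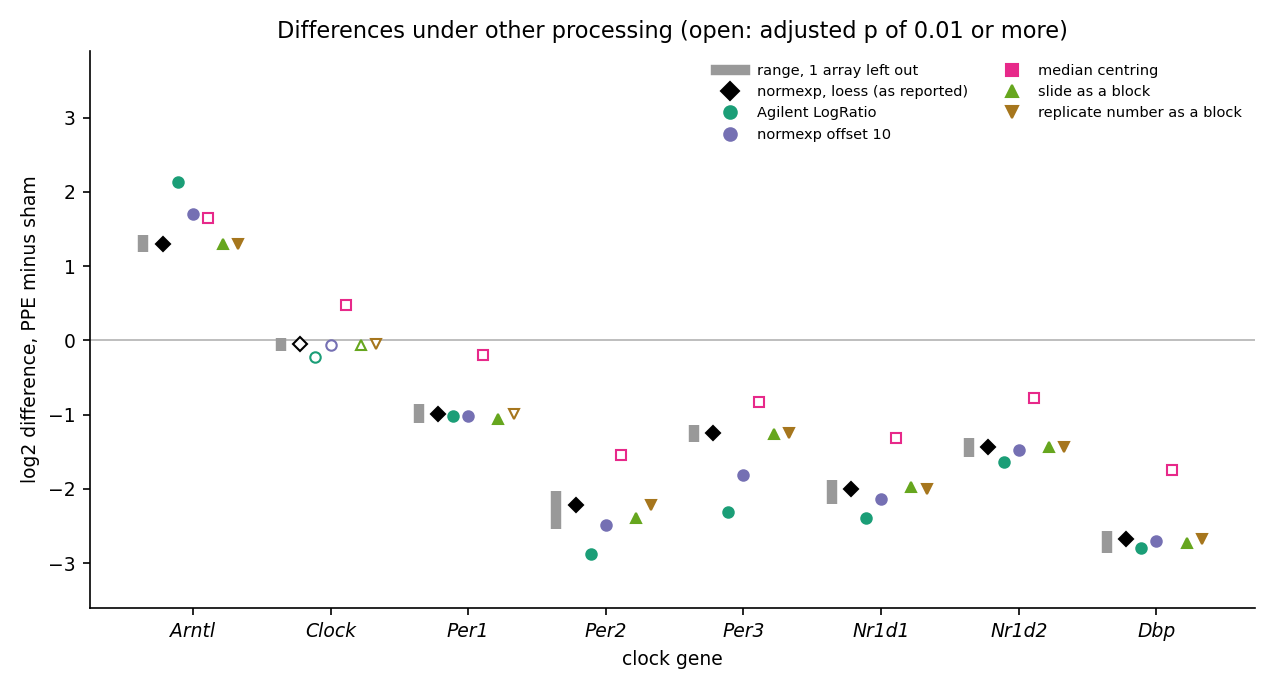
Log2 difference, PPE minus sham (vertical axis), for the 8 tested clock genes under the reported processing (black), other signal or normalisation choices, and blocks for slide or replicate number, with grey bars for the range when 1 array was left out. Open symbols had an adjusted p of 0.01 or more; median centring (pink) gave open symbols for every gene, and the direction of the 7 called genes was the same throughout.

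The wider clock machinery was followed through a list of 28 further genes, all tested. Of these, 2 were higher, 9 lower and 17 neither, with a median log2 difference of -0.28 against 0.02 over all names. The called shares can be read against 13.9% higher and 9.96% lower over all names.

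The D-box factors split by function. Hlf and Tef, activators of the same family as Dbp, fell by 2.84 (adjusted p = 6.37e-06) and 2.04 (adjusted p = 1.56e-05) in limma. Nfil3, which represses through the same D-box, rose by 1.54 (adjusted p = 0.000924), or by 1.35 with slide as a block (adjusted p = 0.0175). In the loop Nfil3, like Arntl, is repressed by the NR1D proteins, and the RefSeq window of Nfil3 also held the RORE core TAGGTCA, at -12 on the opposite strand.

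Among the repressors of ARNTL and CLOCK, Cry2 fell by 1.71 (limma adjusted p = 9.74e-06), and a second Cry2 probe gave -1.27. Ciart, a repressor listed on the array as Gm129, fell by 1.65 (adjusted p = 2.82e-05), and its window held CACGTG at 3 places, -116, -58 and -44. Bhlhe41, which competes for E-boxes, fell by 0.64 (adjusted p = 0.00638), while its paralog Bhlhe40 had a difference of 0.22 (adjusted p = 0.401). The Bhlhe41 call was lost without any 1 of sham 2, 4 and 5 and PPE 1 to 4 (adjusted p from 0.0126 to 0.0193), and with slide as a block (-0.51, adjusted p = 0.0106). Bhlhe41 was well above background on 5 sham and 3 PPE arrays, and Ciart on 5 sham and 4 PPE arrays. Rora and Rorb encode receptors that activate Arntl through the RORE. Rora fell by 1.25 (adjusted p = 0.000134), whereas Rorb (-0.42, adjusted p = 0.273) did not pass.

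Timeless, whose mammalian protein acts mainly at replication forks, rose by 1.25 (limma adjusted p = 4.31e-06), but its second probe gave 0.43 and was not called. Usp2, a deubiquitinase with a strong daily rhythm, fell by 1.24 (adjusted p = 0.00145). It was not called without the arrays of slide 1 (-1.14, adjusted p = 0.0141). Wee1, a cell cycle kinase under E-box control, fell by 0.84 (adjusted p = 0.000194). Btrc, a subunit of the ligase that degrades PER proteins, fell by 0.99 (adjusted p = 0.00112), while its second probe gave 0.07. The 4 kinases Csnk1d, Csnk1e, Csnk1a1 and Gsk3b did not pass, with differences from -0.36 to 0.11, although a dimmer Gsk3b probe gave -0.67 (adjusted p = 0.00137 over probes). The 5 cofactors Sirt1, Nono, Wdr5, Ncor1 and Hdac3 did not pass either (-0.33 to 0.46), although Wdr5 did without PPE 5 (0.39, adjusted p = 0.00845) and a dimmer Nono probe gave 0.43 (adjusted p = 0.00782 over probes).

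**Figure D4:**
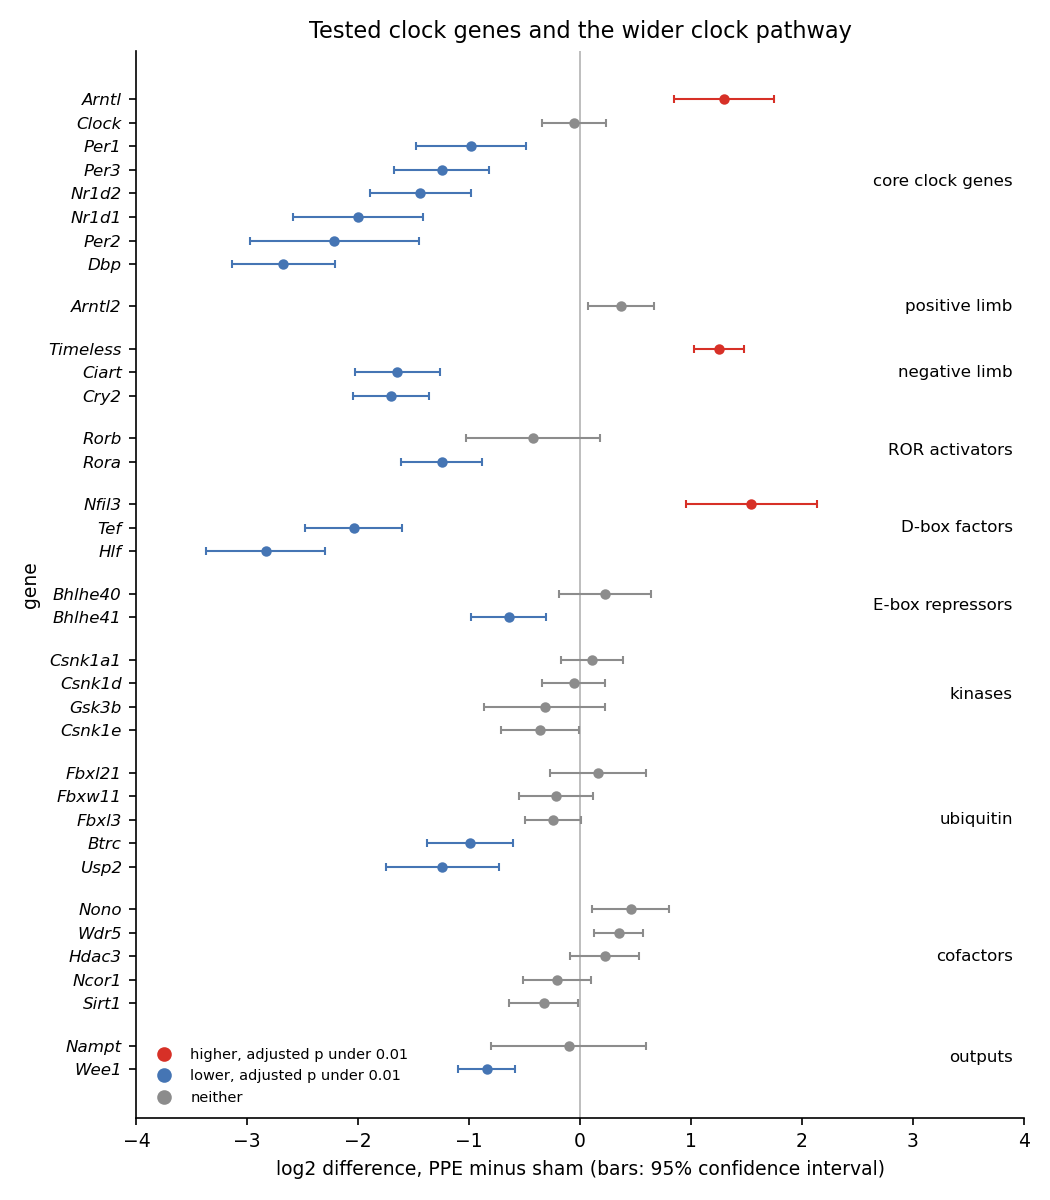
Log2 difference, PPE minus sham, with 95% confidence intervals for the 8 tested clock genes and 27 of the 28 further clock pathway genes, grouped by role. Arntl, Nfil3 and Timeless (red) were higher and the blue genes were lower. The kinases and cofactors (grey) were not called, with differences from -0.36 to 0.46, although the intervals of Nono, Wdr5, Sirt1 and Csnk1e left out 0.

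Corticosterone follows the time of day and induces Per1, so 8 glucocorticoid-responsive genes were read beside it. None was higher, 3 were lower and 5 neither, beside 13.9% higher and 9.96% lower over all names. Zbtb16 fell by 2.49 (limma adjusted p = 3.53e-05), Klf9 by 1.79 (adjusted p = 1.82e-05, with a second probe at -0.31) and Dusp1 by 1.14 (adjusted p = 0.00878). Fkbp5, a classical target of the receptor, had a difference of -0.03 (adjusted p = 0.895), Sgk1 -0.30 (adjusted p = 0.436) and Tsc22d3 -0.45 (adjusted p = 0.031, or 0.00804 without sham 4), which passed with slide as a block (-0.66, adjusted p = 0.00493). Ddit4 had a difference of -0.01 (adjusted p = 0.963), and Cebpd was the gene of the list with a positive difference, 0.46 (adjusted p = 0.0384). The Dusp1 call was lost without any 1 of sham 1 to 4 and PPE 1, 2, 3 and 5 (adjusted p from 0.0155 to 0.0242), and with slide as a block (adjusted p = 0.0189). It was also lost with no filter on dim probes (adjusted p = 0.0158) and without the arrays of slide 1 (-0.69, adjusted p = 0.0933). The Dusp1 difference was -2.08 within slide 1 and -0.74 within slide 2. Klf9 is itself a clock output in several tissues.

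Cell type markers moved with the group as well, and their counts can be read against the same 13.9% higher and 9.96% lower over all names. Of 12 smooth muscle markers 10 were lower, and their mean log2 ratio ranged from 3.55 to 4.53 over the sham and from 1.82 to 2.92 over the PPE arrays. Dimmer probes of called markers gave -0.36 for Smtn and -0.78 for Synpo2, neither called over probes. Others gave -1.80 for Synpo2 and -2.31 for Tpm2, both called over probes. All 8 brown fat markers were lower, with means from 3.80 to 4.69 in sham and from 0.62 to 1.99 in PPE, and 1 of 8 general fat cell markers was lower. The brown fat count includes Elovl3, which was detected on 5 sham and 0 PPE arrays and so entered the test through sham alone. Without it 7 of 7 were lower. Of 12 macrophage markers 8 were higher (0.82 to 1.39 in sham, a median of 3.03 in PPE, none below 2.72), as were 8 of 9 tested neutrophil markers (0.46 to 0.55 in sham, 2.65 to 4.18 in PPE). Mmp8 and Ngp were detected on 0 sham and 5 PPE arrays and entered through PPE alone, and without them 6 of 7 neutrophil markers were higher. Of those left, Cxcr2 and Ltf were detected on 1 sham array each, Retnlg on 3 and Camp on 4, and all of them on 5 PPE arrays. The smaller count therefore still holds genes that detection in sham would not have passed.

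The other lists moved less. Of 8 T and B cell markers 3 were higher, of 6 fibroblast markers 2 were higher, and none of 7 endothelial and 9 tested skeletal muscle markers was called. Of the smooth muscle markers, 11 of the 12 were well above background on all 10 arrays. So were the fat cell markers Cfd, Fabp4, Adipoq and Plin1, so detection of markers does not single out the arterial wall. The part of these cell type changes in the clock gene differences was not tested.

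Within the groups, Dbp and Nr1d1 followed the smooth muscle markers from array to array and Arntl did not. The correlation of deviations from the group means over the 10 arrays was 0.95 between Dbp and the smooth muscle mean and 0.94 between Nr1d1 and that mean, or 0.87 and 0.90 without PPE 2. PPE 2 had the highest smooth muscle mean of the PPE arrays and sham 3 the lowest of the sham arrays, and these were also the highest PPE and the lowest sham arrays for Dbp and Nr1d1. For Arntl the same correlation was -0.19 (-0.30 without PPE 2), for Nr1d2 0.25 (0.19) and for Per2 0.54 (0.55). It depended on PPE 2 for Per1, which turned from -0.13 to 0.33 without it, and for Per3, which went from 0.42 to 0.14. Of the 4 lists compared this way (smooth muscle, brown fat, macrophage, neutrophil), other clock genes had their strongest values with other lists. Nr1d2 stood at -0.76 with the neutrophil mean (-0.76 without PPE 2) and Per3 at -0.61 with that mean (-0.53). Per1 stood at -0.62 with the macrophage mean (-0.62) and Per2 at 0.61 with the brown fat mean (0.59). Without PPE 2 the strongest value of Per1 was instead 0.68 with the brown fat mean, which was 0.20 over all arrays. Each is the strongest of 4 values for its gene and so is extreme by selection. The neutrophil mean had an SD of 0.04 over sham and 0.60 over PPE, so its correlations rest mainly on the PPE arrays. Dbp and Nr1d1 stood at 0.56 and 0.68 with the brown fat mean, or 0.14 and 0.44 without PPE 2, and the strongest value of Arntl was 0.38 with the neutrophil mean. The fat cell, endothelial, fibroblast, skeletal muscle and T and B cell means were not compared this way. PPE 2 was the highest PPE array for each of those too, so a link particular to smooth muscle was not tested. These are descriptions over 10 arrays that share slides and the reference RNA.

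The genes most like each of the leading pair were ranked by the same measure among RefSeq-named genes well above background on all 10 arrays. For Dbp (10638 genes) the highest were Lamb2 (0.97), Gaa, Olfml2b, Tmtc1 and Bcam, and the lowest were Gtf2f2 (-0.97), Cth, Slc12a5, Odf2 and Polr3f. Nr1d1 ranked 29 for Dbp, with r = 0.93, or 0.89 without PPE 2. The other clock genes did not stand out: Per3 was at 0.43, Per2 0.42, Nr1d2 0.35, Per1 -0.29 and Clock -0.54. Of the further genes, Hlf was at 0.73, Cry2 0.47, Tef 0.35 and Ciart -0.04. For Arntl (10639 genes) the highest were Tdp2 (0.95), Rasgef1b, Nfrkb, BC062258 and Psmb4, and the lowest were Eif3c (-0.95), Map3k7, Tmbim6, Uckl1 and Cirbp. Arntl had negative values with Nr1d2 (-0.79), Tef (-0.74), Per3 (-0.60), Per1 (-0.48), Nr1d1 (-0.32) and Dbp (-0.24), and positive ones with Clock (0.48) and Per2 (0.13). Counted from the highest of the 10639, Nr1d2 ranked 10520, Tef 10387, Per1 8976, Nr1d1 7941 and Dbp 7393. Per1, Nr1d1 and Dbp thus did not stand out for Arntl. No p is given, since the ends of an order over so many genes are extreme by selection.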

How the data were processed

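Gene expression was measured in 5 sham and 5 PPE aortas, with 1 aorta per 2-colour Agilent array. The authors used Agilent Feature Extraction 10.7.3.1 to quantify the spots. The deposited intensity values are mean signals and median local backgrounds of each spot, and the deposited log10 ratio of red over green served as an alternative, as did the authors' series table, whose log2 ratios matched the processed signals within 1e-04. In limma 3.58.1 (R 4.3.3) the signals were background corrected (normexp, offset 50) and normalised by loess within arrays, with control spots at weight 0 and outlier spots left out. A gene name was represented by its brightest tested probe. The 5 against 5 unpaired comparison used lmFit and eBayes, two-sided, in place of the study's significance analysis of microarrays, with the study's false discovery threshold of 0.01. The number of arrays limits the precision, and p-values measure the spread between aortas. The limma fit and its adjustment were tested on simulated log ratios with known changes.

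The clock genes, the marker lists and the other lists were chosen with earlier results of these data known. All listed clock genes were described. Of the further clock and glucocorticoid lists, the D-box factors, E-box repressors, Rora, Rorb, Cry2, Ciart, Usp2 and every gene past the threshold were named, and others were named after their values were seen. One gene of the clock list is counted but not reported here. Genes most like Arntl and Dbp were the 5 highest and 5 lowest. The labels do not say that equal replicate numbers mark paired arrays, and the main comparison was unpaired. Probe positions are those of the array design (mm9), and promoters are those of RefSeq. Other signals, offsets, normalisation, filters, probe rules, blocks and left-out arrays were tried.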

Additional observations from a re-analysis of the deposited data

Results flagged for a closer look

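Nr1d1 on PPE 2 had a log2 ratio of 0.56, far above the other 4 PPE arrays, the nearest of which read -0.35. The gap was 0.747 of the range of the group, above Dixon's 95% critical value of 0.71 for 5 samples. The screen covered all 10 clock genes and the opposite-phase difference in both groups, and no other value passed. Chance marks about 1 in 20 groups in this way, so a single marked group is near what chance gives. PPE 2 was also the highest PPE array for Dbp and for the means of 7 of the 9 marker lists, all but the macrophage and neutrophil lists.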

How the results depend on the processing

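Under median centring the log2 differences and limma adjusted p were 1.65 (0.0858) for Arntl, -1.75 (0.178) for Dbp, -1.31 (0.278) for Nr1d1, -0.78 (0.372) for Nr1d2, -0.20 (0.851) for Per1, -1.54 (0.199) for Per2 and -0.83 (0.146) for Per3. The calls were 408 higher and 8 lower over all names, 0 and 0 among the clock genes and in the clock pathway list, and 0 lower in the glucocorticoid list, and the opposite-phase difference was 1.89. The cause was not tested. That difference was 3.13 from the scanner's log ratio, 3.12 from the authors' table, 2.91 with a normexp offset of 10 and 3.12 with Arntl alone, and the filters left it as it was because it does not use them. Requiring detection on all 10 arrays left 6 clock genes tested and 0 higher, since Arntl was not tested. With slide as a block 1 clock pathway gene was higher.

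Pairing by the replicate numbers shared by the groups was not apparent. The correlations of same-numbered arrays ran from -0.30 to 0.52, and 1 of 5 sham arrays correlated best with its own number. With so few arrays this check does not exclude a pairing. With replicate number as a block, calls over all names were 3024 and 2281, and Per1 (-0.98, adjusted p = 0.0112) and Dusp1 (adjusted p = 0.016) lost their calls. With 1 array left out, Per1 ranged from -1.12 to -0.85, and calls over all names from 2514 to 3615 higher and 1752 to 2348 lower. Without slide 1, chosen after seeing the data, there were 2029 higher and 1419 lower, and Per1 was -0.64. Among called clock, clock pathway and glucocorticoid genes no direction turned, but under median centring genes that were not called did, such as Clock (0.48), Csnk1e (0.28), Sirt1 (0.27), Sgk1 (0.56) and Tsc22d3 (0.25). Arntl, Per2, Per3, Dbp, Nr1d1 and Nr1d2 kept their calls under all other alternatives that tested them. The dim signal of Npas2 and Cry1 limits what can be said of them.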
